A study of Drosophila melanogaster with 8 samples.

Results

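A set of 9 regulators of developmental transcription, *h*, *esg*, *vri*, *jing*, *chinmo*, *oc*, *sbb*, *Su(z)2* and *Gug*, was examined at the genomic regions listed as bound by dFOXO in *Drosophila melanogaster*. They were chosen by name from the deposited lists of regions and genes, with their measured tags and ratios already known, so those values are a description and carry no test. They are 9 of the 2801 genes that stood in either list. The list from *chico* heterozygotes held 8 of them among its 2042 genes, without *Gug*. The list from flies with ablated insulin-producing cells (IPCs) held 7 among its 1012 genes, without *h* and *vri*. Both lists held 6 of them, among 253 genes that the lists shared when matched by gene identifier. The paper reports a larger shared set from lists of the same size. It gives a distance of 5 kb between the centre of a binding site and its target genes. With the listed distance limited to 5 kb, both lists held 5 of the 9, since *Su(z)2* was listed at 5520 bp in IPC. *Gug* was listed there at 7949 bp.

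The study asked which genes dFOXO binds in long-lived flies with reduced insulin signaling, by chromatin immunoprecipitation and sequencing (ChIP-Seq) of whole adult females aged 15 days. The *chico* heterozygotes carried 1 copy of *chico1*, a mutation of the insulin receptor substrate, on a *y1; cn1; ry506* background. IPC-ablated flies were the progeny of *Dilp2-GS-Gal4* crossed to *UAS-rpr*, in which the drug RU486 in the food switched on the cell death gene *reaper* in the insulin-producing cells of the adult brain, an ablation that is partial. Each genotype gave 2 ChIP samples with an antibody against dFOXO and 2 input samples of the same chromatin without antibody, 8 samples in all, each from many flies pooled. The authors merged the replicates before calling regions, so each region has 1 ChIP value and 1 input value per genotype and no error between replicates. No ChIP library from wild type or *foxo* mutant flies was analysed here, so the background beside each ChIP value is the input DNA.

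dFOXO is the fly's forkhead box O transcription factor. The kinase Akt, acting below the insulin receptor, holds it out of the nucleus in fed flies, so its access to DNA depends on how strongly the receptor signals. The 9 genes encode proteins that themselves act on transcription, many of them by repression. *h* (hairy) is a pair-rule bHLH repressor that recruits the corepressor Groucho. *esg* (escargot) is a Snail-family zinc finger protein known for maintaining intestinal stem cells, and *jing* encodes a zinc finger protein of border cell migration and tracheal development. *vri* (vrille) is a bZIP repressor of the circadian clock gene *Clk*. *oc* (ocelliless, also called orthodenticle) is a homeobox gene of head and photoreceptor development, and *chinmo* encodes a BTB zinc finger protein of neuronal temporal identity. *sbb* (scribbler, or brakeless) and *Gug* (Grunge, the fly Atrophin) encode corepressors, and *Su(z)2* encodes a relative of the Polycomb group protein Psc.

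The study designed primer pairs for *h*, *esg*, *vri* and *Su(z)2* to amplify the DNA recovered with dFOXO, and those of the first 3 genes are printed here. They are shown because they are the oligonucleotides with which binding at these genes was measured by ChIP-PCR. In that assay the paper reports significantly more dFOXO than in wild type, in both genotypes, at every candidate tested. The candidates include *h*, *esg*, *vri* and *Su(z)2*. *h* and *vri* are thus reported as bound in IPC-ablated flies, although the IPC list did not hold them. Capitals mark the only match to the E-box CACGTG, a palindrome that reads the same on both strands. *h* lies on chromosome arm 3L, and *esg* and *vri* lie on 2L.
h forward: gtgcgcacaaccttgtgatcttgt
h reverse: ttcgtggtttgctgattcatgcgg
esg forward: agttcggCACGTGaggcaattcta
esg reverse: ggctcattacacgaagctgccaaa
vri forward: attcgatggtcatggtgagggtga
vri reverse: cgcacattgcacatctgtgtgtga
Among all 60 ChIP-PCR primers of the study, the E-box was in 1 (1.67%), on *esg*. The forkhead core GTAAACA was in 1 (1.67%) and the GAGA element GAGAG in 4 (6.67%) on either strand, none of them in the 6 primers shown. A primer covers only the end of its product, and where the primers fall within the listed regions was not mapped here.

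The lists gave the ChIP tags (aligned reads) of each region, the input tags after scaling to the ChIP library, and the ratio of ChIP to scaled input. Intervals beside a ratio are 95% exact Clopper-Pearson intervals from the share of ChIP tags. They cover counting error only. The *chico* list held 1331 regions with ratios from 1.07 to 2.52 and widths from 515 to 5816 bp. The IPC list held 763 regions with ratios from 1.00 to 1.28 and widths from 1295 to 99265 bp. The ratios and widths of the lists were therefore not on the same footing, and the genes were described within each list first. Coordinates are those of the lists, whose genome build was not given in the sources used here.

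In *chico* heterozygotes, 4 of the 8 regions, those of *jing*, *esg*, *h* and *vri*, had a ratio of at least 1.2, as did 5.63% of all *chico* regions. The interval lay above 1 for 7 of the 8, all except *oc*, against 41.6% of all *chico* regions. The median ratio was 1.24 over the 8 regions and 1.103 over all regions. In IPC-ablated flies, 2 of the 7 regions, those of *Gug* and *oc*, had a ratio of at least 1.2, and they were the only such regions of the list (0.262%). The interval lay above 1 for 3 of the 7, *Gug*, *oc* and *sbb*, against 9.57% of all IPC regions. The median ratio was 1.096 over the 7 regions and 1.02 over all regions. These shares describe how the genes sat in the lists from which they were chosen.

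**Figure D1:**
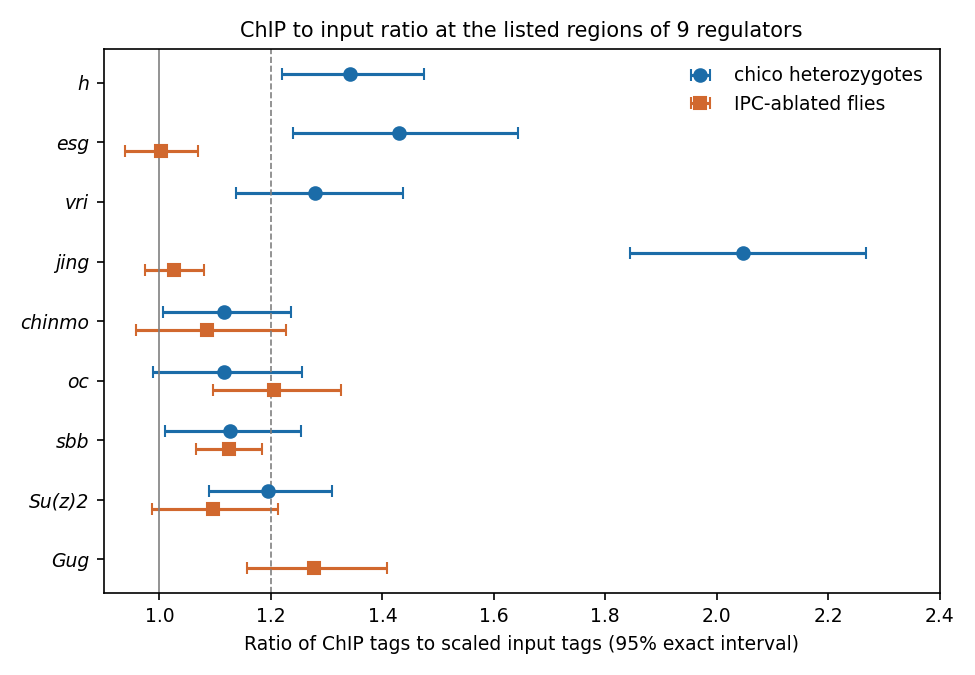
Ratio of ChIP tags to scaled input tags (x axis) for each gene (y axis), with circles for *chico* heterozygotes and squares for IPC-ablated flies. Bars are 95% exact intervals that cover counting error only, the solid line is a ratio of 1 and the dashed line 1.2. The *chico* intervals of *jing* and *esg* lie wholly above their IPC intervals, which come from wider regions. Those of *chinmo*, *oc*, *sbb* and *Su(z)2* overlap between the lists.

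In *chico* heterozygotes *h* had its region at its own 5' end. The region on 3L from 8667618 to 8669288 (1671 bp) had 1027 ChIP tags and 766 scaled input tags, a ratio of 1.34 (1.22 to 1.47). This was rank 27 of the 1331 *chico* regions. The region was listed as inside the gene on its 5' side. It covered the 5' end, and its centre lay 406 bp upstream of the 3.48 kb gene. *h* was not in the IPC list. The nearest IPC region lay 65.3 kb from the gene, was listed for *CG6282* and had a ratio of 1.01 (0.971 to 1.04).

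The same position was marked at *esg*. The *chico* region on 2L from 15333328 to 15334050 was the narrowest of the 8, at 723 bp. It had 485 ChIP tags and 340 scaled input tags, a ratio of 1.43 (1.24 to 1.64) and rank 23. Its centre lay 175 bp upstream of the 5' end, which it covered. The IPC region from 15332671 to 15338299 (5629 bp) spanned the whole 2.29 kb gene, with 1817 ChIP and 1813 input tags and a ratio of 1.00 (0.939 to 1.07). The *chico* region lay entirely inside it and made up 12.8% of its width, and the listed centres were 21 bp apart. The listed position was shared between the lists. ChIP exceeded input by 145 tags over the 723 bp *chico* region and by 4 tags over the 5629 bp IPC region, rank 713 of 763. The IPC value is a sum over the whole gene, so an excess confined to the 5' end cannot be read from it. With input raised by 5%, the IPC ratio of *esg* was 0.955, below 1.

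*jing* had the second highest ratio of the whole *chico* list. Its region on 2R from 2388975 to 2390108 (1134 bp) had 1118 ChIP and 547 input tags, a ratio of 2.05 (1.84 to 2.27). The centre lay 223 bp upstream of the 5' end of a gene of 117 kb, and the region covered that end. The IPC region from 2387479 to 2395390 (7912 bp) also covered the 5' end, with its centre 3553 bp inside the gene. It had 2967 ChIP and 2891 input tags, a ratio of 1.03 (0.975 to 1.08), rank 310, and 0.978 with input raised by 5%. The *chico* region lay inside the IPC region and made up 14.3% of it. Each list names a gene only once, and further regions within *jing* stood under genes nested in it. These were the *chico* regions of *CG15233*, 98.1 kb from the 5' end, with a ratio of 1.12 (0.990 to 1.27), and of *CG15234*, at 108.9 kb, with a ratio of 1.12 (0.999 to 1.26). An IPC region of *CG15234*, at 105.2 kb, had a ratio of 1.02 (0.914 to 1.13). All 3 of these intervals included 1, unlike that of the *chico* region at the 5' end.

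*vri* differed from these genes in where its region lay. The *chico* region on 2L from 5306264 to 5307134 (871 bp) was listed as inside the gene on its 3' side, with its centre 7052 bp downstream of the 5' end of the 11.35 kb gene. It had 658 ChIP and 515 input tags, a ratio of 1.28 (1.14 to 1.44), rank 33. The clock gene was not in the IPC list, where the nearest region lay 59.4 kb away under *nompC* at a ratio of 1.03 (0.993 to 1.07).

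*oc* was the gene whose regions matched most closely between the genotypes. The *chico* region on X from 8544534 to 8545652 (1119 bp) had 585 ChIP and 525 input tags, a ratio of 1.12 (0.989 to 1.26), rank 509. The IPC region from 8544241 to 8546358 (2118 bp) had 960 ChIP and 796 input tags, a ratio of 1.21 (1.097 to 1.33), rank 2 of 763. Both covered the 5' end of the 20.5 kb gene, with centres 383 bp upstream in *chico* and 375 bp upstream in IPC, 8 bp apart. The *chico* region lay inside the IPC region and made up 52.8% of it. The ratio was thus the higher in IPC-ablated flies, but the intervals overlapped.

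*chinmo* was listed in both genotypes at separate ends of a 47.4 kb gene. In *chico* the region on 2L from 1695636 to 1697267 (1632 bp) lay near the 3' end, 45.2 kb from the 5' end, with 784 ChIP and 703 input tags and a ratio of 1.12 (1.01 to 1.24). In IPC-ablated flies the region from 1655138 to 1657148 (2011 bp) lay near the 5' end, which it did not cover, with its centre 4287 bp into the gene. It had 542 ChIP and 500 input tags and a ratio of 1.09 (0.958 to 1.23). The regions were 38.5 kb apart. Each list keeps 1 region per gene by an order that is not stated, so the separation holds for the listed regions only. No other region of either list lay in *chinmo* or within 10 kb of it.

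The corepressor gene *sbb* showed the same separation over 78.2 kb. Its *chico* region on 2R from 14190270 to 14191944 (1675 bp) lay 53.7 kb inside the gene, with 710 ChIP and 631 input tags and a ratio of 1.13 (1.01 to 1.25). That region was also listed for the 5' side of *CG14505*, a gene nested in *sbb*. The IPC region from 14238211 to 14245918 (7708 bp) covered the 5' end of *sbb*, with its centre 485 bp upstream. It had 2995 ChIP and 2665 input tags and a ratio of 1.12 (1.07 to 1.18), rank 9. The ratios were close in value, but the regions lay 46.3 kb apart and measured different DNA.

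*Gug*, which encodes the corepressor Atrophin, was listed in IPC-ablated flies alone and held the highest ratio of that list. The region on 3L from 8433264 to 8435952 (2689 bp) had 929 ChIP and 728 input tags, a ratio of 1.28 (1.16 to 1.41). It was not at the *Gug* promoter. Its listed centre lay 7949 bp upstream of the gene and its nearer edge 7464 bp upstream. The same region was listed as inside *CR32028*, a former name of the RNA-binding protein gene *Unr* in the Release 6 gene table, and was also listed for *Unr*, 3681 bp from its 5' side, and for *CG6983*, 878 bp from its 3' side. The body of *CG6983* lay between the region and *Gug*. *Gug* was not in the *chico* list, where the nearest region lay 19.9 kb away under *Cbl* at a ratio of 1.09 (0.977 to 1.204). Which of the listed genes the bound DNA acts on cannot be read from the lists.

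*Su(z)2*, which encodes the Psc relative, had its *chico* region at the 5' end. The region on 2R from 8883519 to 8885321 (1803 bp) had 1017 ChIP and 852 input tags, a ratio of 1.19 (1.09 to 1.31), rank 84, just under the ratio of 1.2 used for counting. It covered the 5' end, with its centre 390 bp inside the gene. The IPC region from 8877781 to 8879976 (2196 bp) lay 5520 bp upstream, with 776 ChIP and 709 input tags and a ratio of 1.096 (0.987 to 1.21), rank 20. The gap between them was 3542 bp. Upstream of *Su(z)2* lies *Psc*, a core subunit of Polycomb repressive complex, transcribed in the opposite direction from a 5' end 15.5 kb away. The *chico* region of *Psc* covered the *Psc* 5' end with a ratio of 1.16 (1.046 to 1.29), from 799 ChIP and 689 input tags. Its IPC region lay 6642 bp upstream of *Psc*, at a ratio of 1.01 (0.921 to 1.11), and was 433 bp from the IPC region of *Su(z)2*. In *chico* both genes were thus marked at their 5' ends, and in IPC-ablated flies both listed regions lay between the genes.

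**Figure D2:**
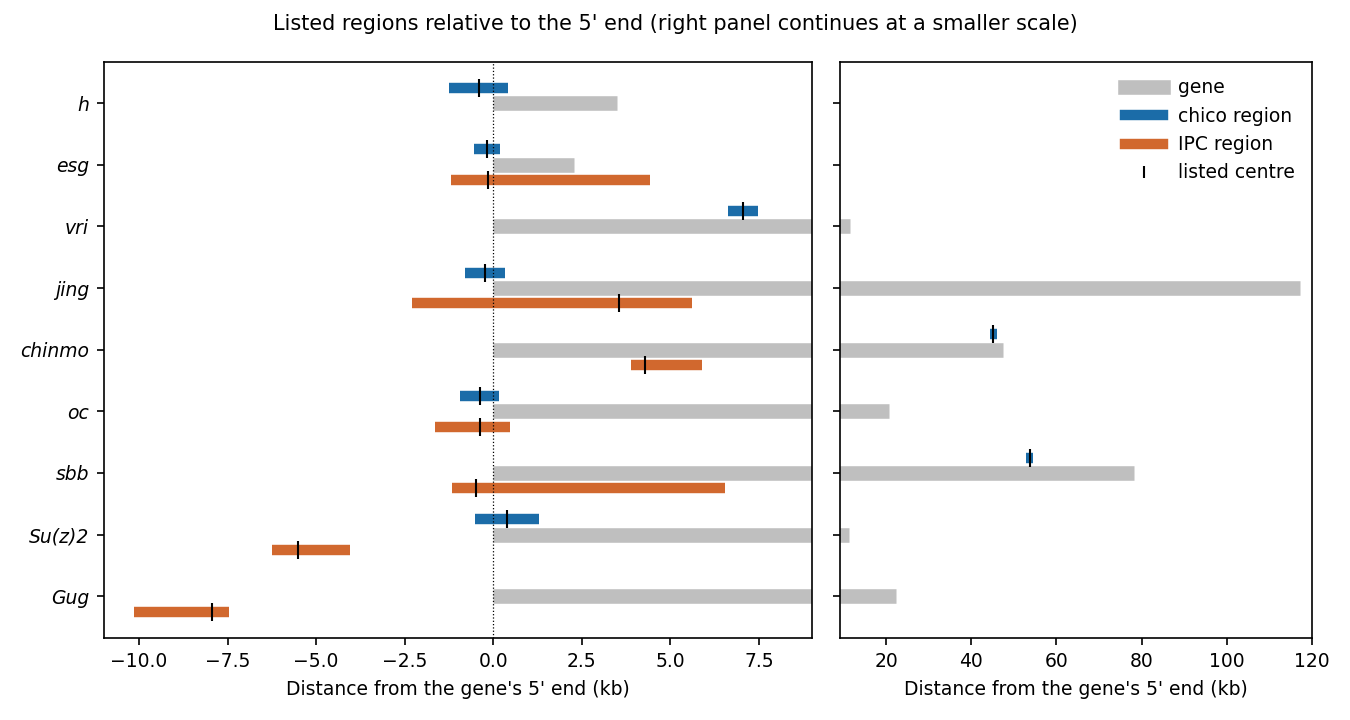
Position of the listed regions along each gene, as distance in kb from the 5' end of the gene with transcription to the right (grey bars are the genes, blue bars *chico* regions, orange bars IPC regions, ticks the listed centres). The left panel runs from 11 kb upstream to 9 kb downstream and the right panel continues at a smaller scale. Both regions cover the 5' end at *esg*, *jing* and *oc*, and the regions of *chinmo*, *sbb* and *Su(z)2* stand apart.

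The genes were chosen by name from lists that also give position relative to the gene, so the positions are a description too. The lists hold only regions assigned to a gene. In *chico* heterozygotes 5 of the 8 regions, those of *h*, *esg*, *jing*, *oc* and *Su(z)2*, covered the 5' end, against 16.9% of all pairs of region and gene. The same 5 had their centre within 500 bp of it, against 10.4% of all pairs. A region listed for several genes counts as several pairs. A single gene was listed for 7 of the 8 regions and for 60.7% of all *chico* regions, so the bases of these shares differ. In IPC-ablated flies 4 of the 7, those of *esg*, *jing*, *oc* and *sbb*, covered the 5' end, against 50.6% of pairs in that list of wider regions. Of these, 3 (*esg*, *oc* and *sbb*) had the centre within 500 bp, against 15.9%. The median distance from the centre to the 5' end was 398 bp over the 8 *chico* regions and 2151 bp over all *chico* pairs. In the IPC list it was 3553 bp over the 7 regions and 2896.5 bp over all pairs, so by the median the 7 IPC regions lay farther from 5' ends than the list as a whole.

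Of the 6 genes in both lists, *esg*, *jing* and *oc* had overlapping regions (3 of 6, against 33.2% of the 253 shared genes). In each of these pairs 1 interval included a ratio of 1. These were the IPC intervals of *esg* (0.939 to 1.07) and *jing* (0.975 to 1.08) and the *chico* interval of *oc* (0.989 to 1.26). Only *sbb* had both intervals above 1, and its regions lay apart. The centres lay within 500 bp of each other for 2 of 6, *esg* and *oc*, against 20.2% of the shared genes. In all 3 overlaps the *chico* region lay wholly inside the IPC region. For *chinmo*, *sbb* and *Su(z)2* the listed regions were separate. In these genes and within 10 kb of them, the only further region under another gene was the IPC region of *Psc*, near *Su(z)2*. Binding that stood in no entry would not be seen. Most regions stood under 1 gene only, 7 of 8 in *chico* (all except *sbb*) and 6 of 7 in IPC (all except *Gug*). Among all regions the shares listed with a single gene were 60.7% in *chico* and 75.6% in IPC.

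Width and tag density gave the depth behind the ratios. The *chico* regions of the 8 genes had a median width of 1383 bp, close to the 1395 bp of all *chico* regions. The IPC regions of the 7 genes had a median of 2689 bp, narrower than the 6569 bp of all IPC regions. ChIP tags per kb of region had a median of 589 over the 8 *chico* regions and 488 over the list, with scaled input at 470 and 441. *jing* was highest at 986 ChIP and 482 input tags per kb. *vri* had 755 ChIP tags per kb over the highest input of the 8, at 591. *esg* had 671 over 470 and *h* 615 over 458. The lowest pairs were those of *sbb* (424 over 377) and *chinmo* (480 over 431), each far from the 5' end of that gene. In the IPC list the median was 353 ChIP tags per kb over the 7 regions and 301 over all regions, with input at 323 and 293. *oc* was highest at 453 over 376 and *chinmo* lowest at 270 over 249. Ratio and width were weakly and inversely related across regions, with a Spearman coefficient of -0.15 over the 1331 *chico* regions and -0.21 over the 763 IPC regions. These regions share their libraries and their depth, and the part of width in the ratios was not tested.

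**Figure D3:**
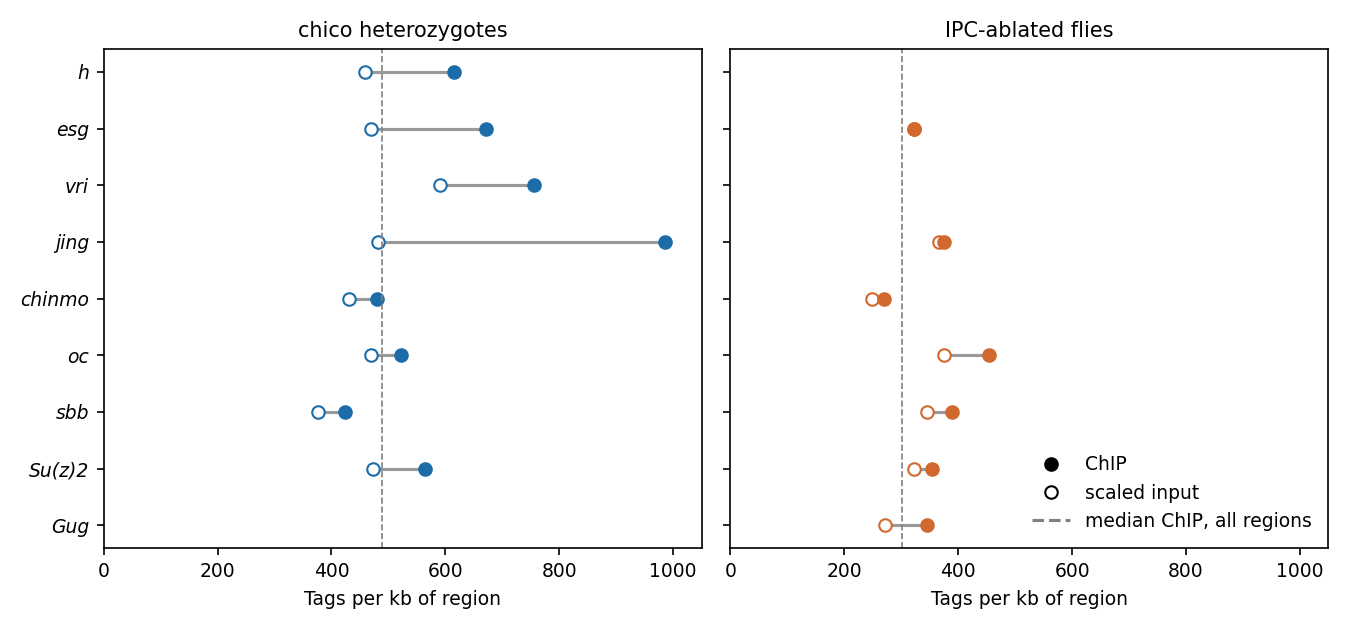
ChIP tags (filled) and scaled input tags (open) per kb of region for each gene in *chico* heterozygotes (left) and IPC-ablated flies (right), each from pooled replicates. The dashed line is the median ChIP density of all regions of the list, 488 and 301 tags per kb. The gap between ChIP and input is widest at *jing* in *chico*, and the points coincide at *esg* in IPC.

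**Figure D4:**
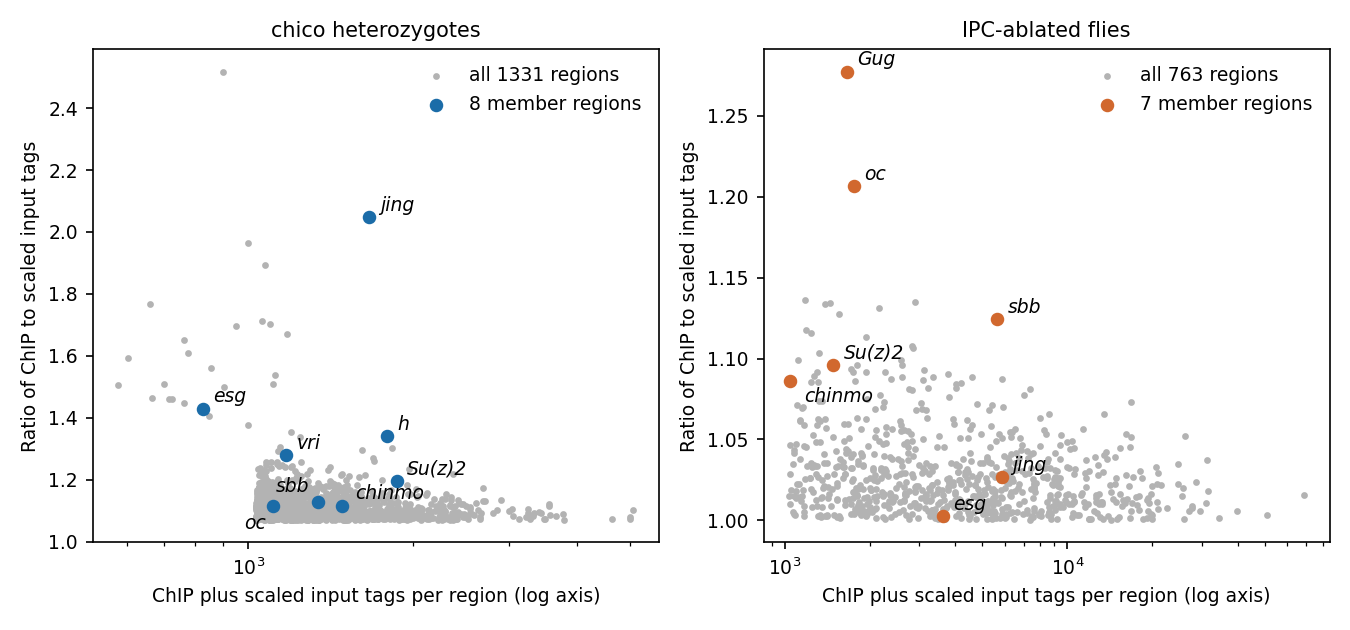
Ratio of ChIP to scaled input tags against the sum of ChIP and input tags of the region (log axis), for every region (grey) and the labelled genes (colored), with separate y scales for *chico* heterozygotes (left) and IPC-ablated flies (right). *Gug* and *oc* stand at the top of the IPC panel, where no other region reaches 1.2, and *jing* lies second from the top of the *chico* panel.

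To see whether other regulators of these families were listed as well, 258 genes from 7 families were counted, 249 of them apart from the 9. The list was drawn up from textbook families, with earlier results of these data known, and its neighboring genes can share a region. Of the 249 genes, 80 (32.1%) stood in the *chico* list, against 14.3% of all protein-coding genes. In the IPC list there were 51 (20.5%), against 6.84% of protein-coding genes. Both lists held 21 (8.43%), against 1.8%. The regions of 5 of these 21 genes overlapped, namely those of *slbo*, *gsb-n*, *tup*, *Rx* and *bab1*. Pooled over the 7 families, these listed genes had a median length of 11.7 kb in the *chico* list and 20.3 kb in the IPC list. The medians of all listed genes were 4.52 and 7.99 kb. Length differed by family in the *chico* list. The median was 3.10 kb for bHLH genes and 2.785 kb for bZIP genes, shorter than that of all listed genes. It lay between 11.8 kb (Polycomb and Trithorax) and 28.8 kb (BTB) in the remaining families. The bHLH and bZIP medians cover only the 15 and 5 genes listed in *chico*. These families were listed at 30.6% and 31.2% in *chico*, and at 2.04% and 18.8% in IPC. A long gene offers more sequence to which a region can be assigned, and the part of length in these counts was not tested.

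The ratios of the other regulators lay near the medians of the lists. The median was 1.11 over the 80 *chico* genes and 1.02 over the 51 IPC genes. A ratio of at least 1.2 was reached by 4 of the 80 in *chico*, beside 5.63% of all *chico* regions. These genes are named after their values were seen. They were *nau*, a myogenic bHLH gene (1.34), *slou*, a homeobox gene of muscle identity (1.26), *emc*, an inhibitor of bHLH proteins (1.23), and *rn*, a zinc finger gene of leg and wing patterning (1.204). None of the 51 IPC genes reached 1.2. This was fixed beforehand, since the only IPC regions at that ratio (0.262%) were those of *Gug* and *oc*, which were set apart.

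The counts by family are given without a test. Homeobox genes other than *oc* were 28 of 79 in *chico* (35.4%) and 25 of 79 in IPC (31.6%), with 10 in both. The shares of all protein-coding genes were 14.3% in *chico* and 6.84% in IPC. By the lower of their ratios, the first in both lists were *caup* (1.14 and 1.06 in *chico* and IPC), an Iroquois gene of sensory organ patterning, and *Rx* (1.13 and 1.04), a gene of brain development. The bHLH genes other than *h* were 15 of 49 in *chico* (30.6%) and 1 of 49 in IPC (2.04%). That gene was *sim*, the midline regulator, at a ratio of 1.00. No bHLH gene stood in both lists, *h* included. BTB genes other than *chinmo* were 6 of 15 in *chico* and 7 of 15 in IPC, among them *ab* (1.14 and 1.00) and *bab1* (1.08 and 1.00) in both.

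Zinc finger genes other than *esg* and *jing* were 17 of 43 in *chico* (39.5%) and 12 of 43 in IPC (27.9%), with *luna* (1.15 and 1.06) and *disco* (1.14 and 1.03) the first by this rule in both. The bZIP genes other than *vri* were 5 of 16 in *chico* and 3 of 16 in IPC, and *slbo* (1.13 and 1.02), a C/EBP gene of border cells, was the 1 gene in both. Polycomb and Trithorax genes other than *Su(z)2* were 5 of 33 in *chico* (15.2%), the lowest share of the 7 families in that list, and 2 of 33 in IPC (6.06%), which were *Psc* and *sxc* (1.11 and 1.02). Both shares were near those of all protein-coding genes. Corepressor genes other than *sbb* and *Gug* were 4 of 14 in *chico*, namely *Sin3A*, *Smr*, *CoRest* and *HDAC4*, and 1 of 14 in IPC, *Smr* (1.07 and 1.03).

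**Figure D5:**
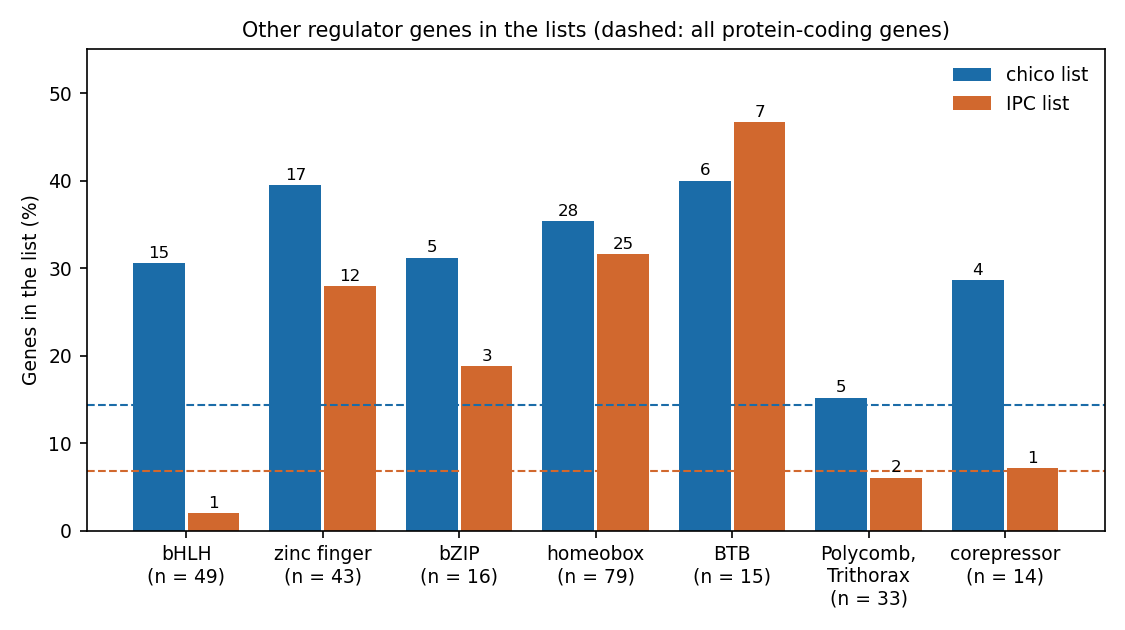
Share of the other genes of each regulator family (y axis, percent, from 0) that stood in the *chico* list (blue) and the IPC list (orange), with the number of genes above each bar and the family size under it. Dashed lines are the shares of all protein-coding genes, 14.3% and 6.84%. The bHLH bar is 30.6% in *chico* and 2.04% in IPC, and the Polycomb and Trithorax bars lie near the dashed lines.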

How the data were processed

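The authors sequenced 8 libraries of whole females, merged the replicates of each genotype, aligned reads with Bowtie (CASAVA 1.6 also stands in the submitters' processing notes) and called regions with PeakSeq at an FDR of 0.01. The deposited ChIP tags are counts per region, not normalized. The deposited input tags are a score, since the authors scaled them to the ChIP library and rounded up. Enrichment was deposited as a ratio, with ChIP tags over scaled input. The authors' p-values and heights were not used. Here, rows were taken by gene name, a region that stood under more than 1 gene entered counts of regions once, and intervals were computed with SciPy 1.17.1 (Python 3.11.15) and tested on simulated data. Positions relative to 5' ends came from gene coordinates in the lists. A Release 6 gene table served for names, matching 2028 of 2042 and 992 of 1012 genes. The members and lists were chosen with earlier results of these data known. Named besides the 9 were other genes of their regions and, per family, at most the 2 genes in both lists with the highest lower ratio. Other genes of small counts were named after their values were seen. Alternatives changed the ratio threshold, input scaling, overlap and distance limits. With pooled tags, no replicate could be left out, and no test was made.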

Additional observations from a re-analysis of the deposited data

How the results depend on the processing

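All 15 ratios of the 9 genes stayed above 1 when taken from the listed tags. Lowering input by 5% can only raise a ratio, and unscaled input changed the intervals but not the ratios. With unscaled input, 7 of the 8 *chico* intervals and 3 of the 7 IPC intervals lay above 1, as with scaled input. With input raised by 5%, the IPC ratios of *esg* (0.955) and *jing* (0.978) fell below 1, and the other 13 stayed above it. Counts near a threshold moved. The 4 *chico* regions at a ratio of at least 1.2 became 8 at 1.1 and 1 at 1.5. The ratio of 1.1 lies below the median of all *chico* regions (1.103), and the shares of all regions at 1.1 and 1.5 were not counted. The 2 IPC regions became 0 at 1.5, and 1 with input raised by 5%. With input lowered by 5%, 6 IPC intervals lay above 1 in place of 3, and 8 *chico* intervals in place of 7. With input raised by 5%, the *chico* count fell to 5 and the IPC count stayed at 3. A change of input moves every region of a list. The shares of all regions under these changes were not counted, so the counts describe the listed genes only. The 3 overlapping pairs became 1 with midpoints within 500 bp. Of the 258 regulator genes, those in the *chico* list fell from 88 to 8 when a ratio of at least 1.2 was required. That ratio was reached by 5.63% of all *chico* regions, and 4 of these 8 genes were among the 9. Those in the IPC list fell from 58 to 38 within 1 kb, and to 2, *Gug* and *oc*, at a ratio of at least 1.2, which 0.262% of all IPC regions reached. No paired analysis was possible because the replicates were pooled before the lists were made, and for the same reason no replicate was left out. Depth limits the reading of ratios near 1, as at *oc* in *chico*, where 585 ChIP and 525 input tags gave an interval from 0.989 to 1.26.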
